A study of Drosophila melanogaster with 6 samples.

Results

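The Polycomb and Trithorax group genes are 34 listed chromatin genes of Drosophila melanogaster, and 28 of them were measured by a probe set that names exactly 1 gene, out of 11983 genes measured in all. The list was set by gene symbol, not by measured values, though earlier results of these data were known when it was chosen. Of the 28 genes, 27 were found under the listed symbol, and calypso was found as caly, through a synonym in the NCBI gene table. The genes ph-p, ph-d, Su(z)2, pho, Bap111 and E(Pc) were not analysed here. Where a gene had several such probe sets, the brightest on average stands for it.

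The values come from Affymetrix arrays of whole 1st instar larvae raised at 25 °C and collected about 48 after egg laying, a time whose unit the labels leave out, with 3 arrays per genotype, each from RNA of 200 pooled larvae. The mutant larvae, labelled dkdm4a mutant, carried dKDM4A KG04636 over ∆dKDM4A, an insertion allele over a deletion of Kdm4A. The control larvae, labelled wt, carried dKDM4A precise KG06436 over dKDM4A precise NP0618, 2 alleles that the labels call precise, meaning that the insertion was cut out without loss. Whether KG04636 and KG06436 name the same insertion is not settled by the labels, and neither is what else the stocks carried. The labels number the arrays of each genotype 1 to 3 as biological replicates, without saying what arrays of the same number share.

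Polycomb group proteins keep developmental genes, above all the homeotic genes, silent in cells where they were not switched on early in development. Polycomb repressive complex 2 (PRC2) methylates histone H3 at lysine K27, and Polycomb repressive complex 1 (PRC1) binds that mark and attaches ubiquitin to histone H2A. Trithorax group proteins work against this silencing, through methylation of histone H3 at lysine K4, nucleosome remodelling and the Mediator of transcription. Kdm4A encodes a histone demethylase of the JmjC family, and the comparison of genotypes asked which genes depend on it.

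Array medians lay between 5.29 and 5.37 on the log2 scale, and no pair of arrays was identical. Kdm4A had log2 values of 3.44, 3.41 and 3.29 in the mutant arrays, against 5.18, 5.26 and 5.46 in the control arrays, a difference of -1.92 (SE 0.10, limma adjusted p = 0.00174). Among the marker lists, all 8 muscle markers and all 8 gut markers lay above the lower quartile of genes on at least 1 array. That quartile ran from 4.35 to 4.43 across arrays. Below it on every array lay 3 of 6 fat body markers, 3 of 8 germ line markers, 2 of 14 neuroblast and dividing cell markers, and 1 marker in each of the neuron and glia, cuticle and haemocyte lists. None of the 28 Polycomb and Trithorax genes lay below the lower quartile on all arrays. With 3 arrays per genotype, all values below carry limited precision.

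Between genotypes, the Polycomb and Trithorax genes differed little. Mutant minus control, the 28 log2 differences ran from -0.43 for psq to 0.10 for Sfmbt, with a median of -0.024, against a median of -0.006 over all genes. Their median absolute difference was 0.077, against 0.090 over all genes. At a limma adjusted p under 0.05, 0 of the 28 passed, where 19 genes, 0.159% of all genes, did. At an unadjusted p under 0.05, 1 of the 28 passed, lolal, where 5.27% of all genes did. With the array number as a block in the fit, 0 of 28 passed after adjustment, against 0.818% of all genes. Unadjusted, lolal and psq passed in that fit, 2 of 28, against 11.2% of all genes. None of these shares exceeds that of all genes.

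The intervals say how large a difference these arrays leave room for. The 95% interval of the genotype difference lay within 0.5 on the log2 scale, up or down, for 22 of 28 genes, where 70.4% of all genes did. It lay within 1, which is a 2-fold change, for all 28, where 92.8% of all genes did. The 6 genes with an interval reaching past 0.5 were esc, psq, lolal, Asx, trx and osa. With the array number as a block, the interval lay within 0.5 for 24 of 28, Asx and trx among them, where 82.6% of all genes did. In that fit the 95% interval of psq, from -0.77 to -0.095, and that of lolal, from -0.52 to -0.071, lay wholly below 0. An interval free of 0 is the same as an unadjusted p under 0.05, found in that fit for 11.2% of all genes. In whole larvae, a gene expressed by fewer cells and a gene with less RNA per cell cannot be told apart.

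**Figure D1:**
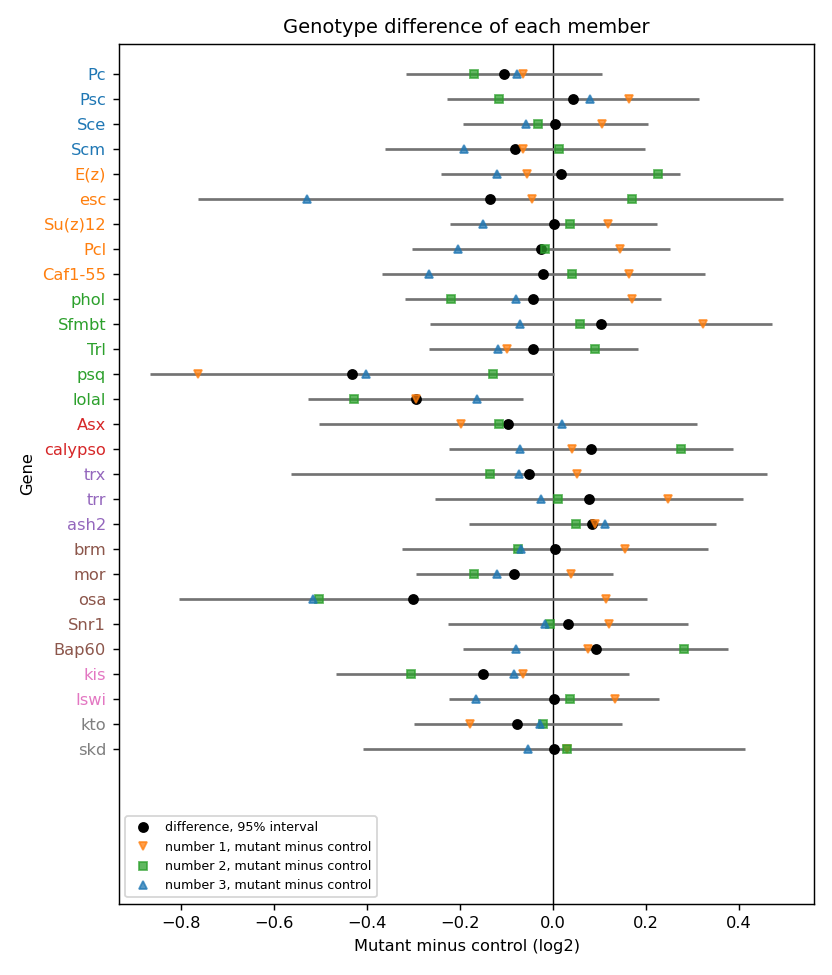
Mutant minus control differences of the 28 genes on the log2 scale. Black points are the differences of means with 95% intervals from the fit without the block, and coloured markers are the differences within array numbers 1, 2 and 3. Only the interval of lolal lies wholly below 0, and none lies wholly above 0. An interval free of 0 is the same as an unadjusted p under 0.05, found for 5.27% of all genes.

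By order of the values, 2 of 28 genes had all 3 mutant values below all 3 control values, lolal and psq, where 6.23% of all genes did. The reverse order, all mutant values above all control values, was found for 0 of 28, where 4.11% of all genes had it. Within array numbers, the mutant was lower in 3 of 3 for 5 of 28 genes, Pc, kis, kto, lolal and psq, where 19.2% of all genes were. It was higher in 3 of 3 for 1 of 28, ash2, where 14.5% of all genes were.

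Array numbers 3 and 1 differed by more than the genotypes did in the median of these genes. The fit with genotype as a term compared numbers over both genotypes, with 2 arrays per number. For number 3 minus number 1, the median log2 difference of the 28 genes was 0.18, against 0.030 over all genes and 0.080 over the 7176 genes with a mean at or above the lowest member mean. Positive differences were found in 23 of 28 (82.1%), where 55.2% of all genes and 61.7% of those 7176 genes had them. The count was 23 also after quantile normalization and after median centring, which gave medians of 0.16 and 0.16. At a limma adjusted p under 0.05, 1 of 28 was higher, trx, where 4.91% of all genes and 6.86% of those 7176 genes were. In the lower direction, 0 of 28 passed, where 3.35% of all genes did. Unadjusted, 8 of 28 (28.6%) were higher, namely trx, skd, Asx, brm, trr, Sfmbt, ash2 and osa. So were 17.1% of all genes and 1706 of those 7176 genes. Only esc was lower unadjusted, 1 of 28, where 9.3% of all genes and 822 of those 7176 genes were.

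Number 3 lay above number 1 in both genotypes for 20 of 28 genes, where 40.7% of all genes did. It lay below in both for 3 of 28, Trl, esc and lolal, where 30% of all genes did. Both arrays numbered 3 exceeded the other 4 arrays for 10 of 28, namely Asx, Scm, Sfmbt, Snr1, ash2, brm, kis, skd, trr and trx, where 18.4% of all genes did. They lay below the other 4 for 1 of 28, esc, where 12.6% of all genes did. Control array 3 held the highest of the 6 values for 16 of 28 genes and the lowest for 0, where it held the highest for 19.8% of all genes. Control array 1 held the lowest value for 13 of 28, where it held the lowest for 25.4% of all genes.

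The remaining comparisons of numbers gave no call among the members. Between numbers 2 and 1, 0 of 28 passed after limma adjustment (0.0% of all genes), and 1 passed unadjusted, trx, where 11.6% of all genes did. Between numbers 3 and 2, 0 of 28 passed, against 0.492% of all genes, and 5 passed unadjusted (17.9%), where 16.8% of all genes did. In the F test of any difference between numbers, 0 of 28 passed, against 1.59% of all genes, and 4 passed unadjusted (14.3%), where 22.5% of all genes did.

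**Figure D2:**
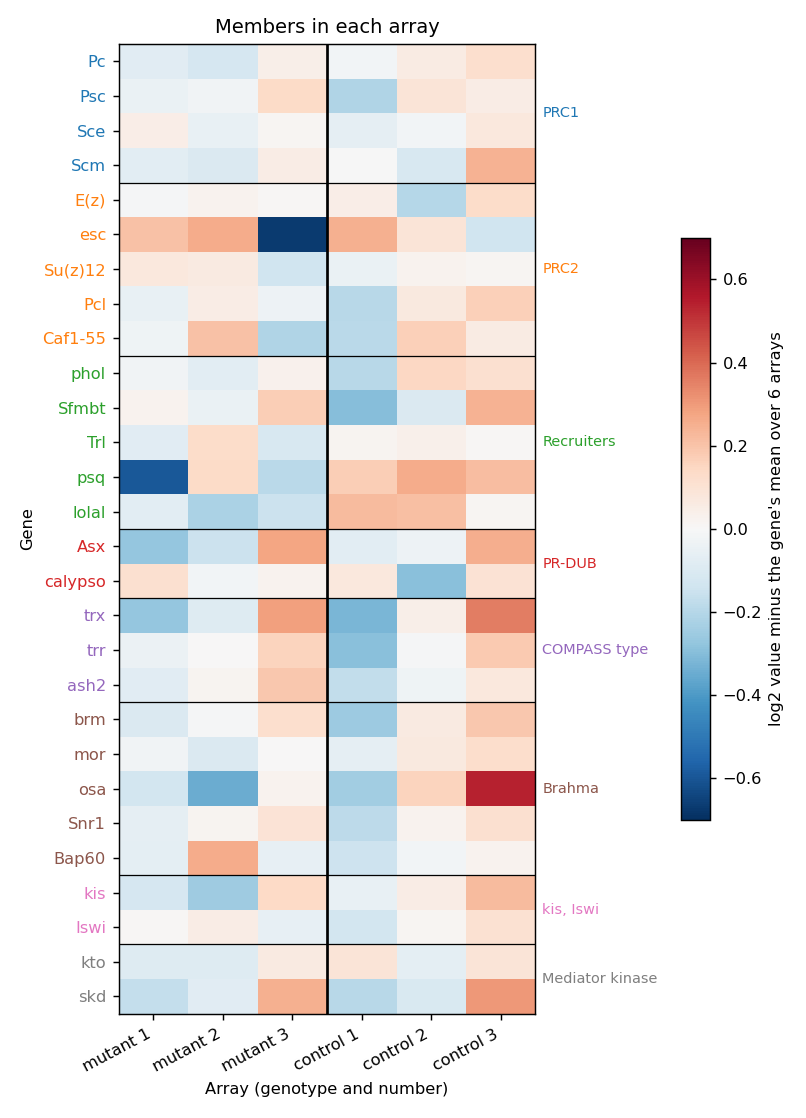
Each of the 28 measured genes in the 6 arrays, as the log2 value minus that gene's mean over all arrays, grouped by complex, with mutant arrays left of control arrays. Control array 3 is above the mean in 27 of 28 genes, mutant array 3 in 19, mutant array 1 in 6 and control array 1 in 7.

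Levels of some tissue marker lists and measures of RNA quality moved with the array number too. The marker lists were chosen with earlier results of these data known, and what moved them was not tested. Of 14 neuron and glia markers, 9 were called higher in number 3 than in number 1, where 4.91% of all genes were. The calls were at a limma adjusted p under 0.05, and the list's median log2 difference was 0.71. The pan-neuronal gene fne led with 1.23 (SE 0.13, adjusted p = 0.0187), followed by nSyb, a synaptic vesicle protein gene, with 0.87 (SE 0.10, adjusted p = 0.0187). Summed on the linear scale, the list gave 6316 in the mutant and 5887 in the control array numbered 3. In number 2 the sums were 3911 in the mutant and 4401 in the control, and in number 1 they were 3947 in the mutant and 3094 in the control. Cuticle markers moved the other way, with a median of -2.06 and 4 of 9 called lower in number 3, where 3.35% of all genes were. Their sums were 1132 in the mutant and 947 in the control in number 3. They were 2992 in the mutant and 3067 in the control in number 2, and 3933 in the mutant and 5769 in the control in number 1. These sums also hold a genotype difference, since 1 of the 9 markers, Cpr67Fa2, was called higher in the mutant. Its difference was 3.78 (SE 0.35, limma adjusted p = 0.0214).

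The gap between 3′ and 5′ actin probe sets, which widens when RNA is degraded or shortened, was 1.63 in the mutant and 1.61 in the control in number 3, and 1.53 in the mutant and 1.84 in the control in number 2. In number 1 it was 2.39 in the mutant and 2.34 in the control. The GAPDH gap ran the same way, with 1.13 in the mutant and 1.15 in the control in number 3, 1.11 in the mutant and 1.21 in the control in number 2, and 1.53 in each genotype in number 1. The part of these shifts in the differences between numbers was not tested.

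**Figure D3:**
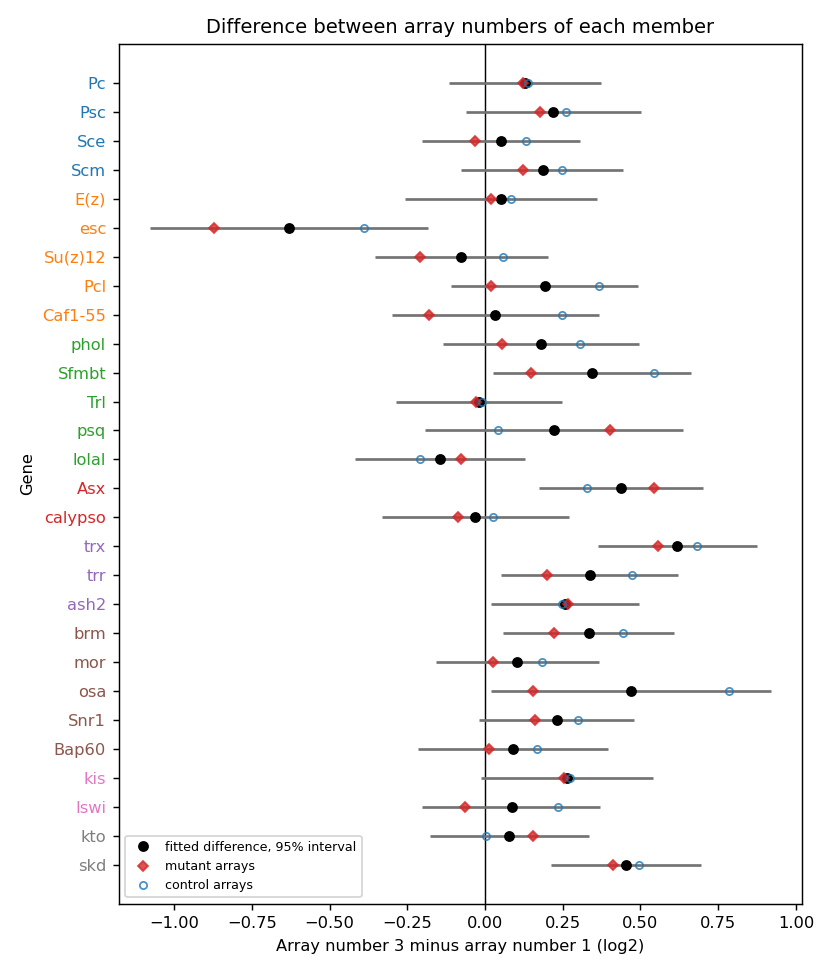
Array number 3 minus array number 1 for the 28 genes on the log2 scale. Black points are fitted differences with 95% intervals, red diamonds are the mutant arrays alone and open blue circles the control arrays alone. Among the fitted differences, trx is highest with 0.62 and esc lowest with -0.63.

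Among the DNA-binding recruiters and their partners, which bring Polycomb complexes to their target sites, lolal and psq had the lowest mutant values relative to the control. lolal, also called batman, encodes a BTB domain protein that partners the GAGA factor. Its log2 values were 9.69, 9.54 and 9.61 in the mutant arrays, against 9.98, 9.97 and 9.77 in the control arrays. The groups did not overlap, with control 3 nearest to the mutant. The difference was -0.30 (SE 0.10), with a limma adjusted p of 0.739, or 0.315 with the array number as a block, so lolal did not pass. Leaving out single arrays or pairs and changing the scaling left its difference between -0.36 and -0.23, with no call in any of the 20 alternatives.

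psq, pipsqueak, encodes a BTB domain protein that binds GA-rich DNA. It had log2 values of 6.16, 6.89 and 6.57 in the mutant arrays, against 6.93, 7.02 and 6.97 in the control arrays. The mutant values spread more widely, with an SD of 0.36 in the mutant and 0.044 in the control (n = 3 each). The difference of -0.43 (SE 0.18) did not pass, with a limma adjusted p of 0.937, or 0.329 with the block. Mutant array 1 set much of its size, since without that array the difference was -0.25. Both genes lie on chromosome arm 2R, as does Kdm4A. There, 138 of 2428 genes (5.68%) had all mutant values below all control values, where 6.23% of all genes did. Of the 28 members, 7 lie on that arm.

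Trl encodes the GAGA factor. The probe set that names Trl alone had log2 values of 7.63, 7.84 and 7.60 in the mutant arrays, against 7.73, 7.75 and 7.72 in the control arrays, a difference of -0.043 (SE 0.094, adjusted p = 0.998). The 3 control values lay within the range of the mutant values. A pair of further probe sets names both Trl and CG42507 and was left out of the main fit. Fitted with all probe sets, they gave genotype differences of 0.10 (SE 0.27) and -0.20 (SE 0.11), neither of which passed. The first of them had log2 values of 7.01 in the mutant and 6.81 in the control in number 3, 6.44 in each genotype in number 2, and 6.15 in the mutant and 6.04 in the control in number 1. Its difference between numbers 3 and 1 was 0.81 (SE 0.11, limma adjusted p = 0.0215), while the other shared set had -0.13 (SE 0.12, adjusted p = 0.645) and the set naming Trl alone -0.020 (SE 0.11). Whether the shared set reads Trl, CG42507 or both cannot be told from the table.

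Sfmbt, which encodes the partner of the DNA-binding protein Pho in the complex PhoRC, had log2 values of 7.49, 7.42 and 7.64 in the mutant arrays, against 7.17, 7.36 and 7.71 in the control arrays. The control values covered the whole range of the mutant values, and the genotype difference was 0.10 (SE 0.15, adjusted p = 0.998). phol, the paralog of pho, differed by -0.043 (SE 0.11) between genotypes and by 0.18 (SE 0.13) between numbers 3 and 1.

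In PRC1, the 4 measured genes were Pc, whose chromodomain reads the K27 methyl mark, Sce, the ubiquitin ligase for histone H2A, its partner Psc, and Scm, an associated protein with MBT domains. Their genotype differences ran from -0.11 to 0.042. Pc had log2 values of 5.865, 5.831 and 5.987 in the mutant arrays, against 5.929, 6.003 and 6.067 in the control arrays. Each mutant value of Pc lay below the control value of the same number, yet the groups overlapped, and the difference of -0.11 (SE 0.088) did not pass (adjusted p = 0.998). Sce was the steadiest of the 28 genes, with all 6 log2 values between 6.91 and 7.04. All 4 genes had positive differences between numbers 3 and 1, from 0.051 for Sce to 0.22 for Psc, and none passed. ph-p, ph-d and Su(z)2 of this complex were not analysed here.

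All 5 genes listed here for PRC2 were measured. They encode the methyltransferase E(z), its stimulating subunit esc, the scaffold Su(z)12, the histone-binding protein Caf1-55 and the accessory subunit Pcl. Genotype differences ran from -0.14 for esc to 0.016 for E(z), and 0 of 5 passed. Those of Su(z)12 and Pcl were 0.001 (SE 0.093) and -0.026 (SE 0.12).

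The gene with the widest range among the 28 was esc. It had log2 values of 6.48, 6.54 and 5.61 in the mutant arrays, against 6.53, 6.37 and 6.14 in the control arrays. Mutant array 3 stood 0.53 below control array 3, the next lowest value. The genotype difference of -0.14 (SE 0.26) turned to 0.17 without mutant array 3. Between numbers 3 and 1 the difference was -0.63 (SE 0.18, limma adjusted p = 0.0956), with 95% bounds of -1.08 and -0.18, and the 2 arrays numbered 3 had the lowest values. Without mutant array 3 that difference was -0.34, and without control array 3 it was -0.93. Caf1-55, also a subunit of chromatin assembly and remodelling complexes, differed in opposite directions in the 2 genotypes between numbers 3 and 1, by -0.18 in the mutant and 0.25 in the control.

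The Polycomb deubiquitinase (PR-DUB) removes ubiquitin from histone H2A and consists of the enzyme calypso and its cofactor Asx. Asx had log2 values of 7.19, 7.31 and 7.73 in the mutant arrays, against 7.39, 7.42 and 7.71 in the control arrays. Both number 3 arrays stood above the other 4, and the groups overlapped. The genotype difference was -0.10 (SE 0.17, adjusted p = 0.998), with an SE of 0.086 when the array number was a block. The difference between numbers 3 and 1 was 0.44 (SE 0.11, adjusted p = 0.0685). calypso had 6.22, 6.09 and 6.14 in the mutant arrays, against 6.18, 5.82 and 6.21 in the control arrays. Control array 2 was its low value, and its genotype difference was 0.081 (SE 0.13).

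The methyltransferases of the COMPASS type place methyl groups on lysine K4 of histone H3. trx, trithorax itself, had log2 values of 8.10 in the mutant and 8.17 in the control in number 3, 7.72 in the mutant and 7.85 in the control in number 2, and 7.54 in the mutant and 7.49 in the control in number 1. Genotypes of the same number lay within 0.14 of each other, while numbers lay further apart. trx was higher in number 3 than in number 1 by 0.62 (SE 0.10, limma adjusted p = 0.0348), which is 1.54-fold with 95% bounds of 1.28 and 1.84. The call was lost without mutant array 3, control array 1 or control array 3, where the adjusted p was 0.164, 0.177 and 0.219 and the difference lay between 0.54 and 0.63. Each of those fits left 1 array in number 3 or number 1. The call was also lost when genotype was left out of the fit (adjusted p = 0.060), where 0 of 11983 genes were called. The F test over all numbers gave an adjusted p of 0.0827. Between genotypes trx differed by -0.052 (SE 0.21, adjusted p = 0.998), with an SE of 0.084 when the array number was a block.

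trr, the methyltransferase gene of a complex acting at enhancers, had log2 values of 7.12, 7.17 and 7.32 in the mutant arrays, against 6.88, 7.16 and 7.35 in the control arrays. Control array 1 was its lowest value, and the difference between numbers 3 and 1 was 0.34 (SE 0.11, adjusted p = 0.136). A second trr probe set gave 0.36 (SE 0.14) for this comparison, and a genotype difference of 0.073 (SE 0.18) beside 0.077 (SE 0.14) for the kept set. ash2, a shared subunit of these complexes, was the only gene of the 28 with the mutant above the control in each number, by 0.090, 0.049 and 0.11. Its difference of 0.084 (SE 0.11) did not pass (adjusted p = 0.998).

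**Figure D4:**
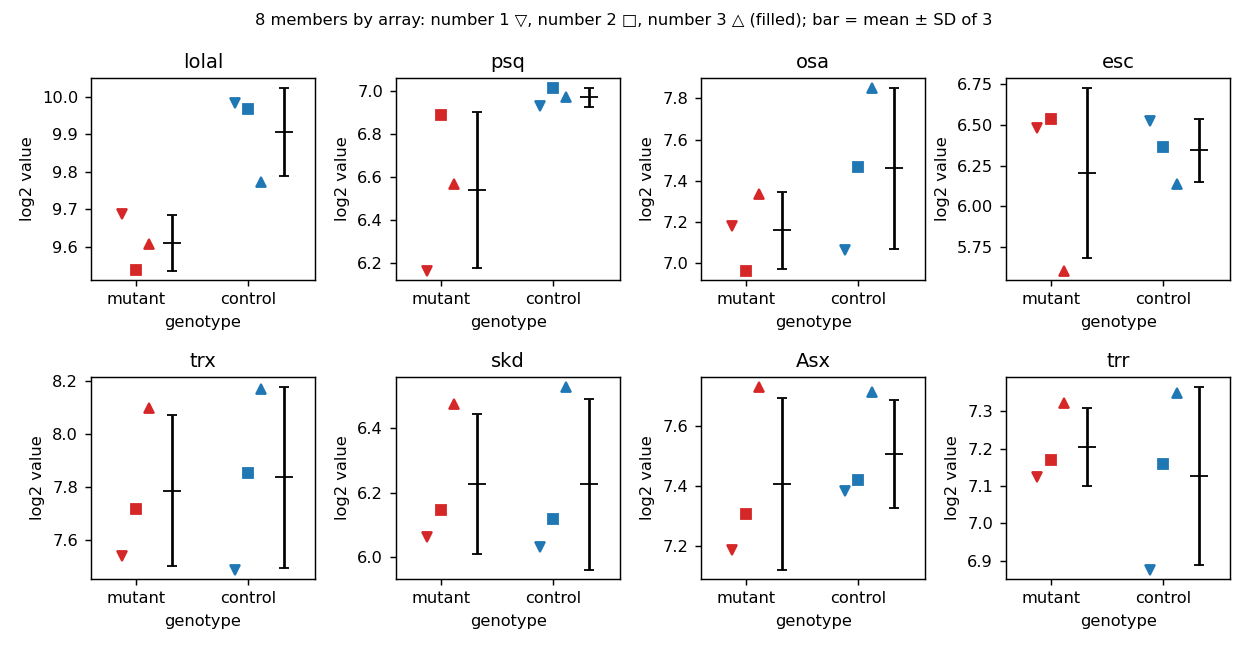
Log2 values of 8 genes in the 3 mutant and 3 control arrays, with bars for the mean and SD of each genotype, and the shape of the marker giving the array number. The genes were chosen after their values were seen. The groups separate for lolal and psq, whereas for trx, skd and Asx the arrays numbered 3 are the high ones in both genotypes.

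The Brahma complex slides and evicts nucleosomes by ATP hydrolysis. Its ATPase gene brm, the scaffold gene mor, and the core subunit genes Snr1 and Bap60 had genotype differences between -0.084 and 0.092, none of which passed. osa, the ARID protein that defines 1 form of the complex, had log2 values of 7.18, 6.96 and 7.33 in the mutant arrays, against 7.06, 7.47 and 7.85 in the control arrays. Control array 3 was the highest and the groups overlapped. The difference of -0.30 (SE 0.21) did not pass (adjusted p = 0.998) and was -0.11 without control array 3. Between numbers 3 and 1, osa differed by 0.16 in the mutant and by 0.79 in the control. With 1 array per genotype and number, the contrast between these 2 values was not tested. The fitted difference of 0.47 (SE 0.18, adjusted p = 0.173) passed without mutant array 1 (0.78, adjusted p = 0.0345) and was 0.16 (adjusted p = 0.629) without control array 1.

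brm had log2 values of 8.53, 8.62 and 8.75 in the mutant arrays, against 8.38, 8.70 and 8.82 in the control arrays. The mutant values lay inside the range of the control, and number 3 exceeded number 1 by 0.33 (SE 0.11, adjusted p = 0.130). All 5 measured Brahma genes had positive differences between these numbers, from 0.090 for Bap60 to 0.47 for osa, and none passed. Bap111 was not analysed here.

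Among the other remodellers, kis, a CHD family protein that opposes Polycomb silencing, had log2 values of 9.52, 9.39 and 9.78 in the mutant arrays, against 9.59, 9.69 and 9.86 in the control arrays. The mutant value was lower in each number but the groups overlapped, and the difference of -0.15 (SE 0.13) did not pass (adjusted p = 0.998). Iswi, the ATPase of the NURF, ACF and CHRAC complexes, differed by 0.001 (SE 0.094), with all 6 values between 7.83 and 8.06.

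kto and skd encode the large subunits of the Mediator kinase module. skd had log2 values of 6.06, 6.15 and 6.47 in the mutant arrays, against 6.03, 6.12 and 6.53 in the control arrays. Same-numbered arrays nearly coincided, giving a genotype difference of 0.001 (SE 0.17, or 0.079 with the array number as a block). Number 3 exceeded number 1 by 0.45 (SE 0.097), with a limma adjusted p of 0.0502 just outside the threshold. skd passed when only the upper 60% of genes by mean were tested (adjusted p = 0.0451) and with array weights (0.0439). A second skd probe set gave 0.27 (SE 0.12, adjusted p = 0.283) for the numbers and -0.089 (SE 0.15) for the genotypes. kto had a genotype difference of -0.077 (SE 0.093) and one of 0.078 (SE 0.10) between numbers 3 and 1. E(Pc) was not analysed here.

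Related chromatin factors and classical Polycomb targets were read from 8 further lists, with 105 of 130 listed genes measured. Between genotypes 0 of 105 passed by limma, and at an unadjusted p under 0.05, 3 were higher and 3 lower, with a median difference of -0.007. Together these are 5.71% of the 105, near the 5.27% of all genes. nej, which encodes the acetyltransferase CBP for lysine K27 of histone H3, had log2 values of 7.89, 7.87 and 8.13 in the mutant arrays, against 7.53, 7.29 and 7.60 in the control arrays. All mutant values lay above all control values, an order that 4.11% of all genes had. The difference of 0.49 (SE 0.12) did not pass (adjusted p = 0.448, or 0.0978 with the block). Tip60, an acetyltransferase gene, had 0.27 (SE 0.11, adjusted p = 0.894). Cdk8, the kinase that works with the products of kto and skd, had -0.24 (SE 0.090, adjusted p = 0.867).

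Of the homeotic genes, 4 of 8 were measured. Antp, which specifies thoracic segments, had log2 values of 7.34, 7.46 and 8.19 in the mutant arrays, against 6.85, 7.58 and 7.90 in the control arrays. Its genotype difference was 0.22 (SE 0.33), and those of Dfd, Scr and pb were 0.077 (SE 0.11), -0.041 (SE 0.12) and -0.14 (SE 0.10), each with an adjusted p of 0.998. Of the other classical targets 35 of 37 were measured and 0 passed. oc, a head homeobox gene, had -0.37 (SE 0.12, adjusted p = 0.724), and btd, a head gap gene, had 0.36 (SE 0.15, adjusted p = 0.914).

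Between numbers 3 and 1, 5 of the 105 related genes (4.76%) were called, all higher in number 3, a share near the 4.91% of all genes called higher. They were Antp with 0.95 (SE 0.16, limma adjusted p = 0.0359), the eye gene toy with 0.77 (SE 0.16, adjusted p = 0.0466), the homeobox gene Lim1 with 0.72 (SE 0.13, adjusted p = 0.0407), the K27 demethylase gene Utx with 0.57 (SE 0.11, adjusted p = 0.0402) and tara with 0.47 (SE 0.099, adjusted p = 0.0485). The 66 measured factors among them, targets left out, had a median of 0.099, and the 35 other classical targets had 0.18, beside 0.18 for the 28 members. The neuron and glia markers moved the same way, as given above.

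**Figure D5:**
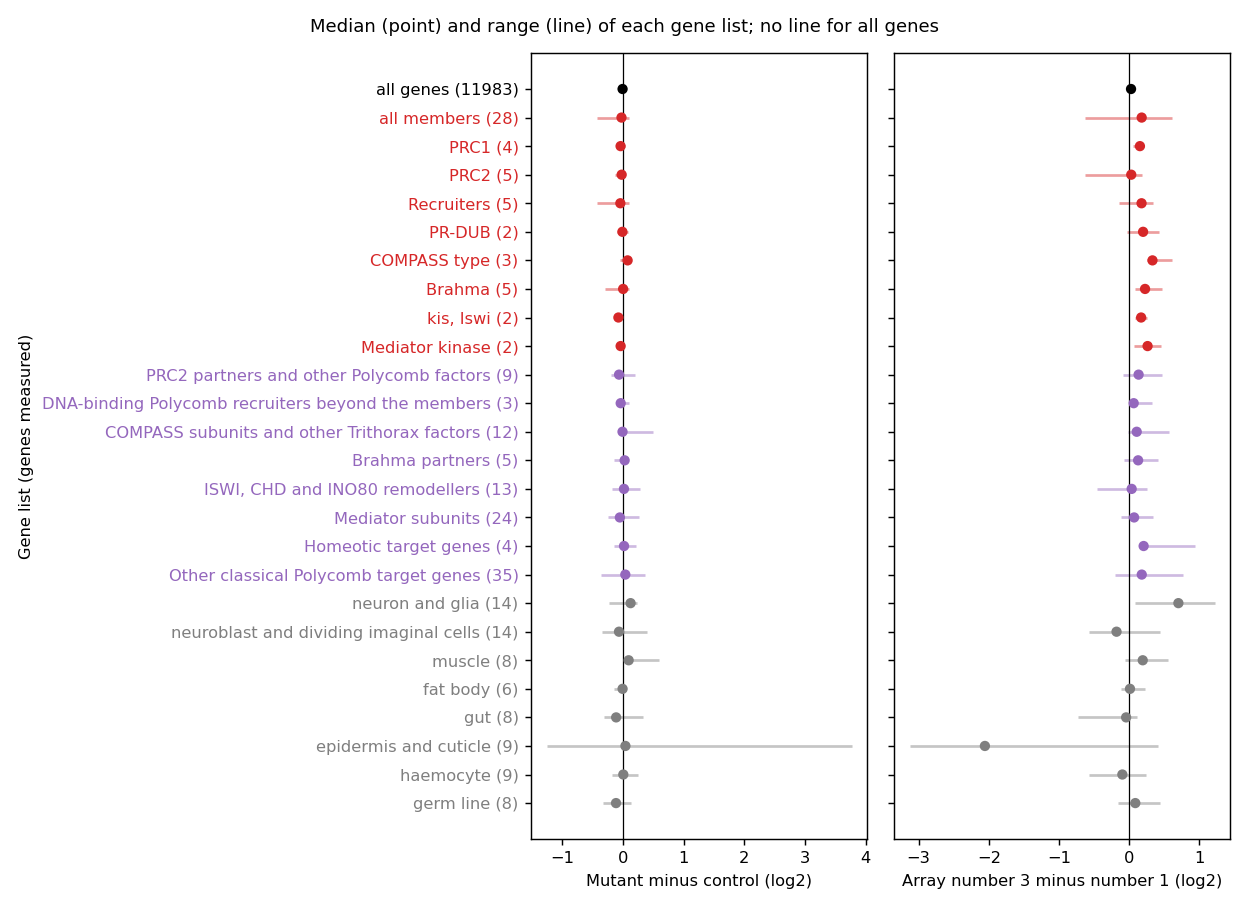
Median (point) and range (line) of each list's log2 differences, mutant minus control at left and array number 3 minus number 1 at right, with the number of genes measured in brackets and no range drawn for all genes. Member lists are red, related lists purple and tissue marker lists grey. Between genotypes the members' median is -0.024, and between numbers it is 0.18, beside 0.71 for neuron and glia markers and -2.06 for cuticle markers.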

How the data were processed

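Probe-set values were deposited on a log2 scale after RMA, which the authors ran, per the submitters' processing notes. No version of RMA is stated in the sources used here, and that the scale is log2 was read from the range of the values. Control probe sets (183 of 18952) were dropped. Of the others, 13647 name 1 gene in the platform's probe table of 2016, 402 name several and 4720 are unlisted. The brightest probe set on average over the 6 arrays was kept for each of 11983 genes, of which 11894 (99.3%) matched the NCBI table for Release 6, used for names and arms.

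Linear models were fitted with lmFit and eBayes of limma 3.58.1, run in R 4.3.3. Tests were two-sided, p-values were adjusted by Benjamini-Hochberg over the 11983 genes, and a gene was called at an adjusted p under 0.05. They were checked on simulated data. Same-numbered arrays deviated together from their group means (correlations of 0.684, 0.151 and 0.756). This was taken as pairing by number, although the correlation of mutant 2 was larger with control 1 (0.354). Genotype differences and SEs are still from the fit without a number term, unless the block is named. For trx, skd and Asx, which moved with the number, those SEs were 0.21, 0.17 and 0.17. With the block they were 0.084, 0.079 and 0.086. Numbers were compared in a fit with genotype as a term. The members and lists were chosen with earlier results of these data known, and every member could be named. Beyond them, Kdm4A, every homeotic gene and up to 4 genes per list and comparison with the smallest p could be named. Plots were drawn with matplotlib 3.10.9.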

Additional observations from a re-analysis of the deposited data

How the results depend on the processing

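Between genotypes, 0 of the 28 members passed in the limma fit as reported and in each of its 20 alternatives, and over all member values the smallest adjusted p was 0.178. The 19 genes called over all genes became 11 among the upper 60% of genes by mean, 82 with array weights (statmod 1.5.0) and 98 with the replicate block. Leaving out 1 array gave 5 to 18. Without both arrays numbered 1 or both numbered 2 there were 0, with 441 and 287 genes at an unadjusted p under 0.05. Without both arrays numbered 3 there were 26, with 863 genes unadjusted. Chosen after seeing the data, the block without both arrays numbered 1, 2 or 3 gave 89, 110 and 23. In 83 of 560 member values, over 20 members, the uncalled genotype difference changed sign, and 2 values moved by more than 1 SD of the replicates. The members' median was -0.024, with 15 of 28 lower. It was -0.078 with 24 lower without control array 1, -0.062 with 24 lower without both arrays numbered 1, and 0.030 with 9 lower without control array 3.

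Between numbers 3 and 1, the count of members called, 1, became 2 with the upper 60% filter and with array weights (skd and trx each time), 0 without genotype in the fit, and 0 to 2 when 1 array was left out. Over all genes, the 989 called became 744 of 7189 with the filter, 1154 with array weights and 0 without genotype. Leaving out an array numbered 1 or 3 left 1 array in that number. In 15 of 420 member values, over 10 members, the sign changed, and 15 uncalled values moved by more than 1 SD. Their median of 0.18 was 0.13 without control array 3 and 0.12 without control array 1. No called difference reversed. The cause of these changes was not tested. Scanner files were not used here, so signal over background was not assessed.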
